A study of Mus musculus with 2 samples.

Results

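The genes described here are the mouse zinc finger genes whose symbols start with *Zfp* and a digit, or with *Zkscan*, *Zscan*, *Zfx*, *Zfhx*, *Zfat*, *Znf*, *Rslcan*, *Zik1* or *Zfand*. Of the 4788 gene rows listed in the table of FMRP-bound transcripts, 210 matched, for 209 symbols, because *Zfp91* held 2 rows. Both libraries came from testes of adult wild-type male mice. One was made from the lysate before immunoprecipitation (input), and the other from RNA recovered with an anti-FMRP antibody (FMRP RIP). The comparison asked which transcripts were held with FMRP in the testis. No treatment, mutation or control immunoglobulin library entered the comparison, and the mice behind each library are not described in the labels.

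FMRP is an RNA-binding protein that associates with ribosomes and messenger RNA granules and regulates translation, and its loss causes fragile X syndrome. Most zinc finger proteins of the kinds described here carry arrays of C2H2 fingers, short folds that hold a zinc ion and read DNA bases. Many also carry a KRAB domain, which recruits the corepressor TRIM28 and its chromatin partners to transposable elements and imprinted loci, or a SCAN domain, through which such proteins pair with each other. Their genes arose largely by tandem duplication, so relatives often lie side by side and can share long stretches of near-identical sequence.

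Values are CPM, a gene's reads divided by the total of the library and scaled alike in both. The log2 ratio is log2((RIP CPM + 1) / (input CPM + 1)), with a pseudocount of 1 CPM that shrinks the ratio of genes with low levels. There was 1 library per group, so no value has a replicate error and no test between input and RIP was possible. Intervals are exact Clopper-Pearson 95% intervals of the plain CPM ratio and cover counting error only. The recovered total of the input was 30849871 reads and that of the FMRP RIP 36506932, so 1 read was worth 0.0324 CPM and 0.0274 CPM. The table held genes that were higher in the RIP, so the direction of every ratio was fixed by this selection and is no finding. CPM is not corrected for transcript length, so levels of different genes were not ranked as abundances.

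The sequences of some neighbours show how closely related the members could be. Promoter windows, from 250 bases before to 50 bases after the annotated gene start, were available in RefSeq (GRCm38.p6) for 171 of the 209 symbols. *Zfp955a* (chr17:33255096-33255395, minus strand) and *Zfp955b* (chr17:33289294-33289593, plus strand) had the same 300 bases, read 5′ to 3′. They are shown because both rows held parts of reads that added up to whole reads. Most of each window lies before the gene start, so it does not show where the transcripts shared reads. Transcript sequences were not compared.
Zfp955a and Zfp955b: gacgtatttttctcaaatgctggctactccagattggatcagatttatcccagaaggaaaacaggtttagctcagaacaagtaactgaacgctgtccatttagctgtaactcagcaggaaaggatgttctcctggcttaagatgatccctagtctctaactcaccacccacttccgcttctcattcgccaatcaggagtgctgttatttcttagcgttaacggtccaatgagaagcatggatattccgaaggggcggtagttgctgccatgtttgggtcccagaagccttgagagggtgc

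*Zfp937* (chr2:150217849-150218148, plus strand) and *Zfp442* (chr2:150451452-150451751, minus strand) are shown as a pair that is close but not identical. They shared 281 bases, with 7 mismatches and 24 gap positions in the alignment, an identity of 90.1%. Capitals mark bases that differ from the other gene or have no partner in it.
Zfp937: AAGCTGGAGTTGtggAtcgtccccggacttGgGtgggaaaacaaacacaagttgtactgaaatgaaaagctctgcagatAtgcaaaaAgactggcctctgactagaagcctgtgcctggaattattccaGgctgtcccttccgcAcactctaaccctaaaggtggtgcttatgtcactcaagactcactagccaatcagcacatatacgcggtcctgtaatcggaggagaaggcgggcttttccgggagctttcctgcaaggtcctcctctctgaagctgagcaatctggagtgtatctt
Zfp442: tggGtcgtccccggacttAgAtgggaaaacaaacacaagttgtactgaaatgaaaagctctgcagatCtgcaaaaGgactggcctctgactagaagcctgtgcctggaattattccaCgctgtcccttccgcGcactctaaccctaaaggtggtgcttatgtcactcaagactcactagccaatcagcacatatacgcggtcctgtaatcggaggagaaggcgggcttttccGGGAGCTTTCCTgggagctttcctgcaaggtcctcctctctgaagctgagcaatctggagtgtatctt

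*Zfp937* had 22.02 reads in the input and 180.03 in the RIP, and *Zfp442* had 14.98 and 140.02. Their log2 ratios were 1.79 and 1.70. Parts of a read arise when a read that fits several genes is shared among them, but how the deposited values were counted is not given in the sources used here.

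Zinc finger genes were listed more often than protein-coding genes as a whole, though they held 1.60% of the listed input CPM and 1.89% of the listed RIP CPM. Of 439 protein-coding genes of the RefSeq reference that fit the naming rule, 209 (47.6%) were listed, against 21.3% of all 21900 protein-coding genes. The reference was not limited to genes expressed in the testis, and what expression contributed to this gap was not tested. The remaining 230 have no level here, because a gene that was not called higher was not in the table. The 191 listed *Zfp* genes came from 393 of the reference. All 3 *Zfhx* genes, which combine zinc fingers with homeodomains, were listed, as were *Zfat* and *Znfx1*. The SCAN-domain families were listed in part, with 6 of 11 *Zkscan* and 6 of 16 *Zscan* genes, and no *Zscan4* gene was among them. Of 7 *Zfand* genes, which encode AN1-type fingers, *Zfand3* was listed. The 4 genes of the *Zfp36* family, whose proteins bind AU-rich RNA and speed its decay, were not listed, nor were *Zfx*, *Zik1* and *Rslcan18*. Related families had similar shares. Of other C2H2 families such as *Zbtb*, *Klf* and *Prdm*, 55 of 123 (44.7%) were listed, and of other zinc finger types such as *Zc3h* and *Zdhhc*, 48 of 95 (50.5%).

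The members' ratios lay close to those of the whole table. Their median log2 ratio was 1.50 (quartiles 0.99 and 2.05, range 0.49 to 4.16), and over all listed genes it was 1.35 (quartiles 0.92 and 2.0). A log2 ratio above 1 was found for 156 members (74.3%), beside 70.1% of all listed genes. Above 2 there were 55 members (26.2%), beside 25%, and above 3 there were 12 (5.71%), beside 6.62%. These shares lay near those of the whole table, and which was larger depended on the pseudocount: with 5 CPM, 46.2% of members and 51.7% of all listed genes passed 1. For all 210 members the lower limit of the plain CPM ratio was above 1. Because the table holds genes called higher in the RIP, limits above 1 go with that selection and are no finding. The same count over all listed genes was not made. The lowest limit, 1.17, belonged to *Zfp420*. Together the members took 0.227% of the input reads and 1.04% of the RIP reads, a ratio of 4.59, against 3.89 for the sum of all listed genes. All ratios are relative to the library totals: scaled to the sum of the listed genes instead, the median was -0.0653 for members and -0.25 for all listed genes, and the members' stayed the higher.

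Most members had low levels. Their median input level was 2.90 CPM and their median RIP level 10.6 CPM, against 9.27 and 30.6 CPM over all listed genes. In the input, 46 members (21.9%) were under 1 CPM, compared with 548 (11.4%) of the listed genes. The genes were also short in the genome, with a median span of 21.5 kb against 47.5 kb. As the testis holds many cell types, fewer cells expressing a gene and less RNA per cell cannot be told apart in these levels. In the plot of input against RIP level, the members formed a band above the diagonal with few genes at its upper end.

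**Figure D1:**
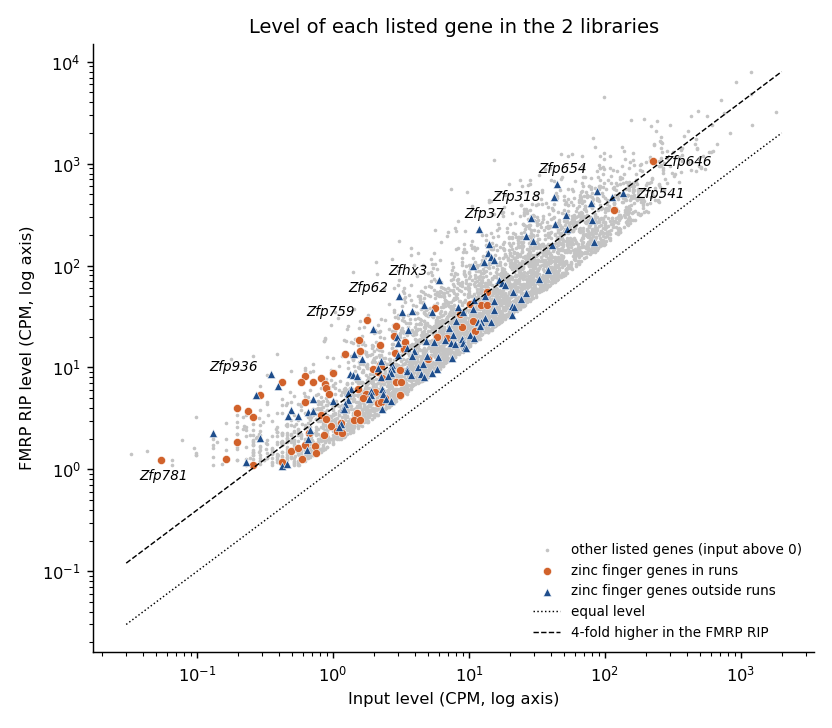
Input level (horizontal axis, CPM, log scale) and FMRP RIP level (vertical axis, CPM, log scale) of the members in runs (circles) and outside runs (triangles) over the other listed genes with input above 0 (grey dots). All points lie above the dotted line of equal level because the table holds genes higher in the RIP; the dashed line marks a 4-fold higher RIP level, and *Zfp936* (24.6) and *Zfp37* (19.3) lie far above it.

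Because the pseudocount ties the log2 ratio to the level, members were set beside listed genes of the same input level. Under 1 CPM, the 46 members had a median log2 ratio of 1.37, compared with 1.0. From 1 to 10 CPM, 110 members had 1.41, compared with 1.29. From 10 to 100 CPM, 50 members had 1.77, compared with 1.54. In all 3 ranges the members' median was the higher, and the 4 members at 100 CPM or more had 1.97 beside 1.56. Below 1 CPM the excess went with shared reads. The 32 members with parts of a read in at least 1 library had a median of 1.51 there, and the 14 with whole reads had 0.996, beside 1.203 for the 166 listed genes with parts of a read and 0.97 for the 382 with whole reads at that level. What read sharing contributed to the ratios was not tested.

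**Figure D2:**
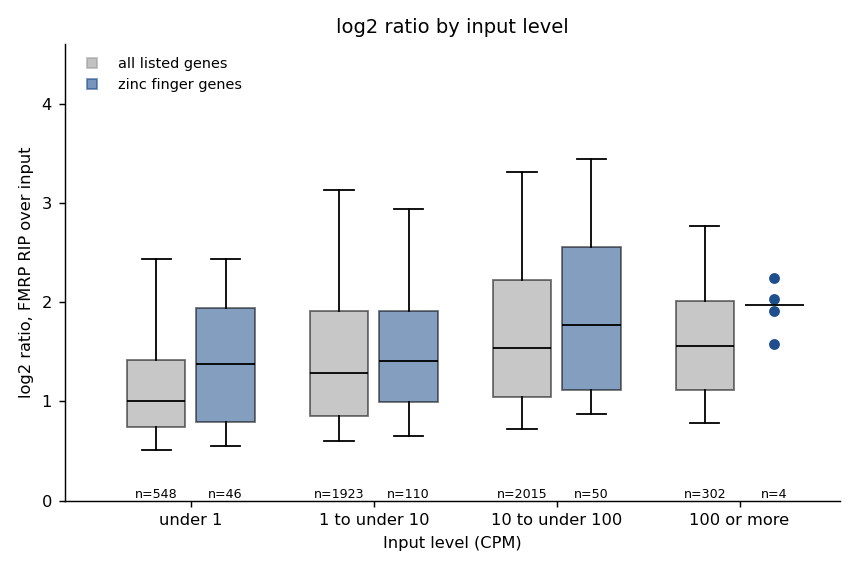
Log2 ratio of members and of all listed genes by input level (horizontal axis, ranges in CPM); boxes are quartiles with the median, whiskers reach the 5th and 95th percentiles, and the 4 members of the highest range are points with a line at their median. The members' medians are 1.37, 1.41, 1.77 and 1.97 from the lowest to the highest range, each above that of all listed genes, and the boxes of the lower 3 ranges overlap.

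The highest log2 ratio among members with at least 100 reads belonged to *Zfp37* (ENSMUSG00000028389, chromosome 4, 62189540 to 62231047, GRCm38), a KRAB zinc finger gene known for its expression in male germ cells. It had an input level of 11.8 CPM and a RIP level of 228 CPM, a log2 ratio of 4.16. The plain ratio was 19.3, with a counting interval of 17.4 to 21.5. *Zfp37* ranked 52 among all listed genes. *Zfp654* followed with an input level of 44.2 CPM and a RIP level of 634 CPM, a log2 ratio of 3.81 and a plain ratio of 14.3 (13.6 to 15.2). The intervals of these 2 genes did not overlap.

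The next genes by this measure differed in function and position. *Zfp62* had 3.05 and 50.7 CPM in the input and RIP, with a log2 ratio of 3.68. *Zfp318* encodes a nuclear cofactor first named for its expression in the testis, where it modulates the androgen receptor. It had 41.9 and 471 CPM, with a log2 ratio of 3.46. *Zfp759*, from the chromosome 13 cluster, had 1.78 and 29.2 CPM, and *Zfp592* had 14.1 and 163 CPM, and both had log2 ratios of 3.44. *Zfhx3*, a large homeodomain transcription factor of neurons and other tissues, had 5.997 and 71.4 CPM and a log2 ratio of 3.37. *Zfp39*, another KRAB zinc finger gene, had 28.8 and 291 CPM and a log2 ratio of 3.29. For 7 of these 8 genes the lower limit of the plain ratio was above 10, and *Zfp39* was the exception, at 9.44. The plain ratio gave another order, because it does not shrink low levels. Its highest value, picked after the values were seen, was that of *Zfp936*, with 0.348 and 8.55 CPM, a ratio of 24.6 (13.2 to 48.5). *Zfp781* came next at 23.1, but rested on 1.66 input reads, and its interval ran from 4.97 to 162.

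At the other end were the 5 lowest log2 ratios among members with at least 100 reads. *Zfp780b* had 3.11 and 5.38 CPM in the input and RIP (log2 ratio 0.63), *Zfp839* had 2.66 and 4.63 CPM (0.62), and *Zfp827* had 5.38 and 8.74 CPM (0.61). *Zfp827* encodes a protein that brings the NuRD remodelling complex to telomeres. *Zfp953* had 1.16 and 2.26 CPM (0.60), and *Zfp296*, a partner of KLF4 in stem cells, had 2.30 and 3.92 CPM (0.57). Their plain ratios lay between 1.62 and 1.95. The interval of each excluded 1, which goes with the selection of the table and is no finding.

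**Figure D3:**
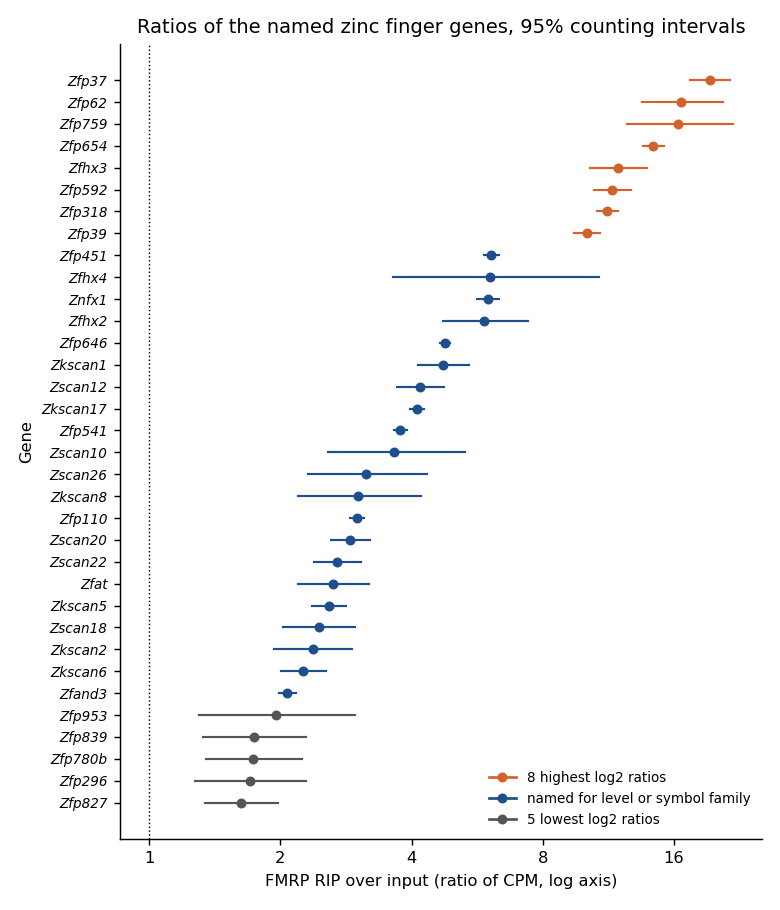
Plain RIP to input CPM ratio (log axis) of the named members, with bars for the 95% counting interval. Colours mark the 8 highest and 5 lowest log2 ratios and the genes named for level or family; *Zfp37* lies at 19.3 (17.4 to 21.5) at the top and *Zfp827* at 1.62 (1.34 to 1.97) near the bottom, and genes with few reads have the widest bars.

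Genes with high CPM in the input included several with known roles in germ cells and chromatin. *Zfp646* (ENSMUSG00000049739, chromosome 7, 127876221 to 127885996) had an input level of 225 CPM and a RIP level of 1070.3 CPM, a log2 ratio of 2.25. It overlaps *Zfp668* on the other strand, which had 1.59 and 3.07 CPM and a log2 ratio of 0.65. *Zfp541*, a germ cell chromatin factor needed to complete meiotic prophase, had an input level of 137 CPM and a RIP level of 516 CPM, a log2 ratio of 1.91 and a plain ratio of 3.77 (3.65 to 3.90). *Zfp110*, which encodes a protein that binds the neurotrophin receptor p75, had 116 and 347 CPM and a log2 ratio of 1.58. *Zkscan17*, whose protein binds the histone methyltransferase NSD1, had 113 and 466 CPM and a log2 ratio of 2.03. *Zfp451*, which encodes a SUMO ligase, had 87.9 and 536 CPM and a log2 ratio of 2.59. The log2 ratios of these 5 genes were above the members' median of 1.50, but the plain ratio of *Zfp110*, 2.998, lay below the members' median plain ratio of 3.57. Those of *Zfp654* and *Zfp318*, also among the highest in the RIP, were larger.

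The SCAN-domain genes varied over a narrow range. Among *Zkscan* genes, the log2 ratio was 2.11 for *Zkscan1* (input 8.33 CPM, RIP 39.4 CPM), 1.33 for *Zkscan5* (21.0 and 54.4 CPM) and 1.17 for *Zkscan8* (1.65 and 4.99 CPM). It was 1.11 for *Zkscan6* (12.3 and 27.6 CPM) and 1.08 for *Zkscan2* (4.21 and 9.998 CPM). All 6 listed *Zkscan* genes passed 1, as did 70.1% of all listed genes, and with a pseudocount of 5 CPM *Zkscan8* (0.59), *Zkscan2* (0.70) and *Zkscan6* (0.92) did not. Among *Zscan* genes the log2 ratio was highest for *Zscan12* at 1.96 (10.1 and 42.3 CPM), followed by *Zscan20* at 1.48 (15.3 and 44.4 CPM) and *Zscan22* at 1.35 (10.7 and 28.8 CPM). *Zscan10*, a factor of pluripotent stem cells, had a log2 ratio of 1.32 (1.30 and 4.74 CPM), *Zscan26* had 1.24 (1.76 and 5.52 CPM) and *Zscan18* had 1.14 (4.96 and 12.1 CPM). All 6 listed *Zscan* genes passed 1 and none passed 2, beside 70.1% and 25% of all listed genes. With a pseudocount of 5 CPM, *Zscan10* (0.63), *Zscan26* (0.64) and *Zscan18* (0.78) did not pass 1.

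The smaller families were more spread. Among the homeodomain genes, *Zfhx2* had an input level of 2.98 CPM and a RIP level of 17.5 CPM, a log2 ratio of 2.22, and *Zfhx4* had 0.551 and 3.34 CPM, a log2 ratio of 1.49, both below *Zfhx3*. *Znfx1*, a helicase with NFX1-type fingers that senses viral RNA, had 42.6 and 255 CPM and a log2 ratio of 2.56. *Zfat*, a factor needed for survival of T cells, had 4.90 and 13.0 CPM and a log2 ratio of 1.24. *Zfand3*, which was cloned from testis, had 82.7 and 172 CPM and a log2 ratio of 1.04.

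Members with established roles, grouped after their values had been seen, did not fall together. Of the KRAB zinc finger genes that act through TRIM28 on imprinted genes, *Zfp568* lay above the members' median and the other two below it. *Zfp57*, which keeps methylation at imprinting control regions, had an input level of 8.82 CPM and a RIP level of 19.1 CPM, a log2 ratio of 1.04. *Zfp445*, which shares that role, had 11.7 and 27.7 CPM and a log2 ratio of 1.18, and *Zfp568*, a repressor of a placental *Igf2* promoter, had 1.98 and 9.70 CPM and a log2 ratio of 1.85. ZFP592, ZFP687 and ZFP532 work together in a complex with ZMYND8, but their genes differed: *Zfp592* had a log2 ratio of 3.44, *Zfp532* had 1.34 (6.71 and 18.6 CPM) and *Zfp687* had 1.15 (32.6 and 73.3 CPM). The counting interval of *Zfp592*, 10.5 to 12.8, did not overlap those of *Zfp532* (2.36 to 3.25) and *Zfp687* (2.09 to 2.42). *Zfp644*, which works with the histone methyltransferases G9a and GLP, had 13.9 and 132 CPM and a log2 ratio of 3.16. *Zfp217*, a part of LSD1 corepressor complexes, had 79.2 and 414 CPM and a log2 ratio of 2.37. *Zfp335* and *Zfp143*, both activators of transcription, had log2 ratios of 1.71 and 1.26.

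Some members are known to act on RNA or proteins. *Zfp106*, an RNA-binding protein of nerve and muscle, had an input level of 10.7 CPM and a RIP level of 98.9 CPM, a log2 ratio of 3.09. *Zfp638*, an RNA-binding protein of the nucleus, had 10.8 and 45.9 CPM and a log2 ratio of 1.99. *Zfp598*, the ubiquitin ligase that marks collided ribosomes, had 13.2 and 49.7 CPM and a log2 ratio of 1.84. *Zfp830*, a splicing-associated protein, was lower, with 4.44 and 8.63 CPM and a log2 ratio of 0.82. *Zfp91*, another ubiquitin ligase gene, had 26.0 and 193 CPM and a log2 ratio of 2.84 in its main row (ENSMUSG00000024695). In the second row of that name (ENSMUSG00000118491), which covers the same stretch of chromosome 19, it had 0.271 and 5.32 CPM and a log2 ratio of 2.31. Of the genes known from pluripotent cells, *Zfp462* had a log2 ratio of 2.33 (1.62 and 12.2 CPM) and *Zfp281* had 1.96 (2.24 and 11.6 CPM), against 0.57 for *Zfp296*.

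Of 20 genes for the chromatin partners of KRAB proteins, 14 were listed (70%, beside 21.3% of all protein-coding genes). The reference was not limited to genes expressed in the testis, and what expression contributed to this gap was not tested. Their median log2 ratio was 1.07, and 8 (57.1%) passed 1, beside 1.35 and 70.1% for all listed genes. Above 2 there were 4 (28.6%), near the 25% of all listed genes. *Chd3* and *Chd4*, helicases of the NuRD complex, had log2 ratios of 4.65 and 2.74, *Atf7ip* and *Atf7ip2*, partners of the methyltransferase SETDB1, had 2.55 and 1.71, and the DNA methyltransferase genes *Dnmt1* and *Dnmt3a* had 2.47 and 1.23. *Smarcad1* had 1.11, and *Setdb1* itself had 1.03. Below these were *Uhrf1* at 0.998, *Cbx3* at 0.96, *Cbx5* at 0.84, *Morc2a* at 0.77, *Tasor* at 0.70 and *Mphosph8* at 0.63, the last 2 encoding parts of the HUSH silencing complex. *Trim28*, the corepressor that KRAB domains bind, was not among the listed genes.

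The members lay on 20 chromosomes, with the most on chromosome 7 (46 of 104 reference genes of this kind), followed by chromosome 17 (23 of 48) and chromosome 13 (20 of 43). Runs were defined as 3 or more listed members on a chromosome, each within 300 kb of the next. There were 17 runs on 8 chromosomes, which held 77 members, and 7 of the runs, with 29 members, were on chromosome 7. In the reference, genes in such runs were listed about as often as the others: 107 of 236 (45.3%) in runs and 102 of 203 (50.2%) outside.

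**Figure D4:**
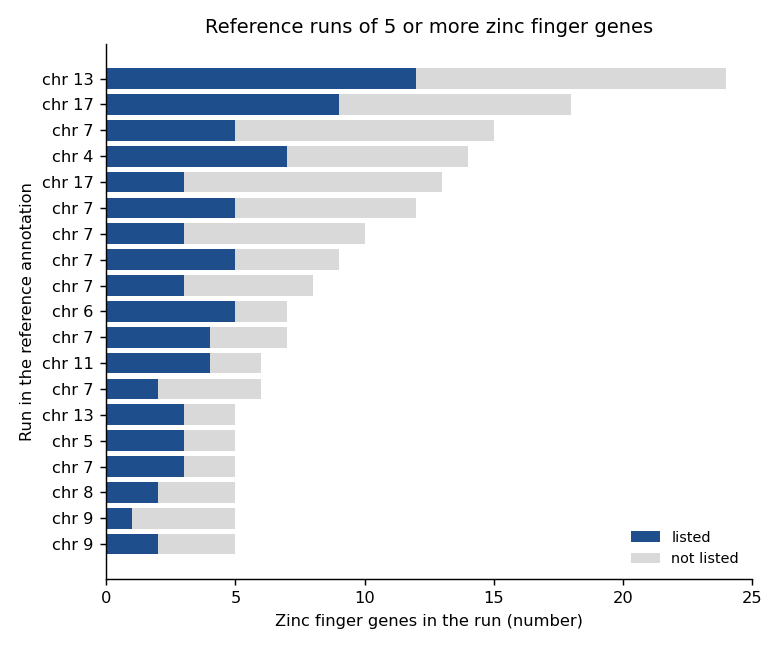
Number of reference genes in each of the 19 reference runs of 5 or more zinc finger genes, divided into genes in the table and genes not in it. All 19 runs hold genes of both kinds, with 12 of 24 listed in the largest.

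Members in runs and members outside them differed in level and in read sharing, while the order of their ratios depended on the pseudocount. Those outside were not all lone genes, since they included pairs of listed neighbours such as *Zfp574* and *Zfp526*. The 77 members in runs had a median input of 1.56 CPM and a median log2 ratio of 1.41, with 52 (67.5%) above 1. The 133 outside runs had 4.85 CPM and 1.51, with 104 (78.2%) above 1. Without a pseudocount the order turned, with a median plain ratio of 3.86 in runs and 3.56 outside. Parts of a read were present for 47 (61.0%) of the members in runs and 39 (29.3%) of those outside, beside 26.8% of all listed genes. At input levels under 1 CPM, the 29 members in runs had a median log2 ratio of 1.25 and the 17 outside had 1.49. From 1 to 10 CPM the medians were 1.40 for 40 members in runs and 1.41 for 70 outside, and from 10 to 100 CPM they were 1.59 for 6 in runs and 1.81 for 44 outside. Of the 12 members above a log2 ratio of 3, *Zfp759* was the only one in a run.

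The largest run, on chromosome 13 from 67038596 to 67827002, held 12 listed genes of 24 in the reference, 10 of them on the minus strand. Their median log2 ratio was 1.76 (0.60 to 3.44), and 8 passed 1. *Zfp759* had the highest value, and was followed by *Zfp458* at 2.70 (input 1.23 CPM, RIP 13.5 CPM) and *Zfp738* at 2.61 (1.56 and 14.6 CPM). The next ones were *Zfp729a* at 1.95, *Zfp58* at 1.84, *Zfp595* at 1.79, *Zfp729b* at 1.74 and *Zfp748* at 1.51. *Zfp712* and *Zfp65* at 0.75, *Zfp273* at 0.74 and *Zfp953* at 0.60 did not pass 1. *Zfp759* and *Zfp712*, the only ones with whole reads in both libraries, were neighbours, yet their plain ratios were 16.4 (12.5 to 21.9) and 2.93 (1.69 to 5.37), intervals that did not overlap. The intervals of other neighbours overlapped, such as *Zfp729b* (3.91 to 8.88) and *Zfp729a* (4.80 to 11.1).

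The run on chromosome 17 from 21383748 to 22377281 held 9 listed genes of 17, with a median log2 ratio of 1.75 (0.76 to 2.94), and 7 passed 1. Its highest values were those of *Zfp51* at 2.94 (input 1.56 CPM, RIP 18.6 CPM), *Zfp677* at 2.52 (0.616 and 8.27 CPM), *Zfp54* at 2.50 (2.79 and 20.4 CPM) and *Zfp758* at 2.36 (0.583 and 7.13 CPM). *Zfp994* had 1.75, *Zfp942* had 1.41 and *Zfp229* had 1.25, and *Zfp948* (0.96) and *Zfp983* (0.76) stayed under 1. Plain ratios in this run ran from 3.13 for *Zfp983* to 13.4 for *Zfp677*. At input levels this low the pseudocount weighs heavily, and without it the median log2 ratio of the run was 3.24.

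The other runs of 5 genes had lower ratios. On chromosome 6, from 47819266 to 48086593, the median log2 ratio was 0.98, and *Zfp398* (1.83) and *Zfp777* (1.50) passed 1 while *Zfp746* (0.98), *Zfp282* (0.86) and *Zfp786* (0.76) did not. On chromosome 7, the run from 12478293 to 12909083 had a median of 1.14 and held *Zfp110*, *Zscan22* and *Zscan18*, described above, with *Zfp329* at 1.06 and *Zfp606* at 0.87. The run from 24081924 to 24301232 had a median of 1.38, with *Zfp180* at 1.67, *Zfp93* at 1.62, *Zfp61* at 1.38, *Zfp111* at 1.13 and *Zfp235* at 0.51. The run from 29816114 to 30107622 had a median of 1.14, with *Zfp27* at 1.93, *Zfp568* at 1.85, *Zfp260* at 1.14, *Zfp790* at 0.90 and *Zfp420* at 0.49. Each of these runs therefore held genes on both sides of a log2 ratio of 1.

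**Figure D5:**
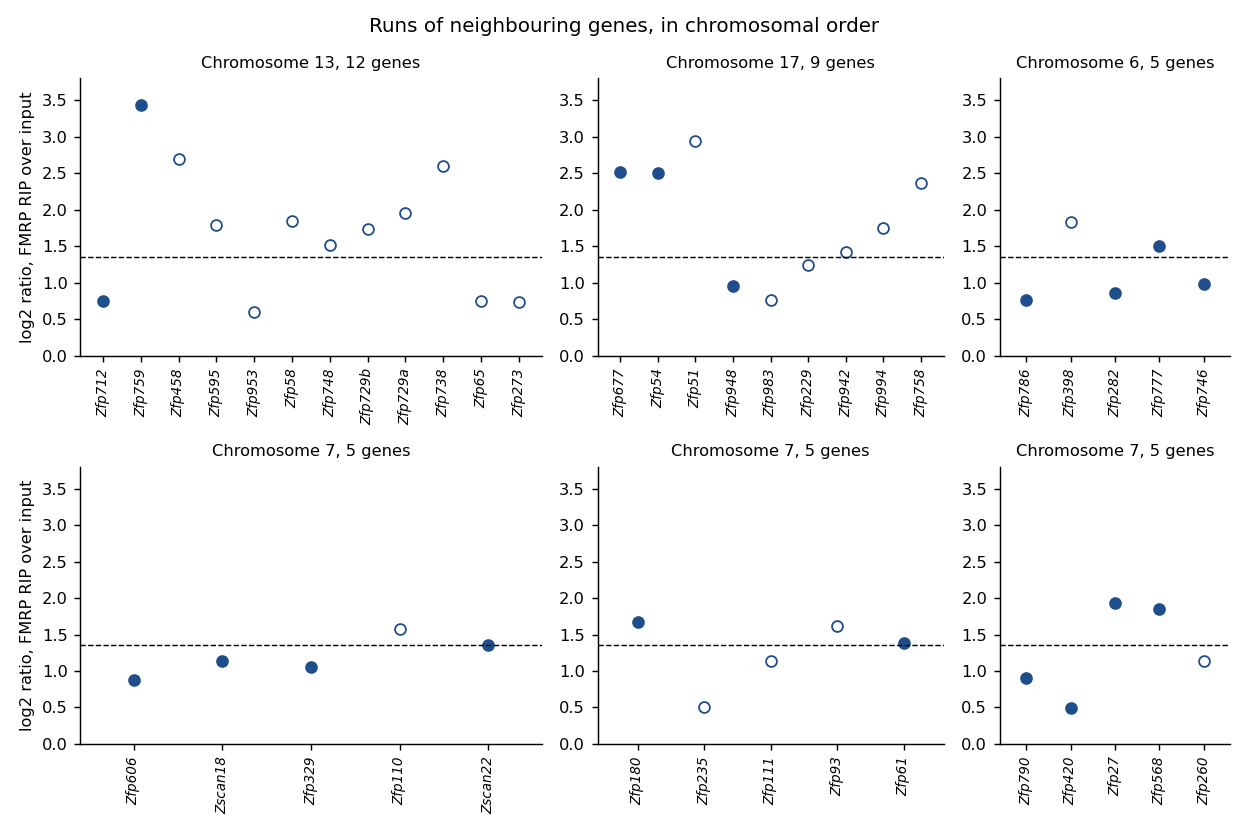
Log2 ratio of the members of the 6 runs of 5 or more genes, in chromosomal order, with filled circles for genes with whole reads in both libraries and open circles for genes with parts of a read in at least 1. The dashed line is the median of all listed genes, 1.35, and every run has members on both sides of it.

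Several small runs lay wholly on 1 side of a log2 ratio of 1. All 3 members passed 1 in the runs on chromosome 4 from 146449023 and chromosome 10 from 81704825. The same held on chromosome 13 from 21362820 and chromosome 17 from 33239718. A further pair of such runs, chosen after their values were seen, is described here. On chromosome 7 from 42473386 to 42692742, all 4 reference genes were listed, all on the minus strand, at a median input of 0.264 CPM. *Zfp141* had an input level of 2.27 CPM and a RIP level of 10.3 CPM (log2 ratio 1.79), *Zfp977* had 0.292 and 5.40 CPM (2.31), *Zfp976* had 0.194 and 3.95 CPM (2.05) and *Zfp975* had 0.236 and 3.71 CPM (1.93). The plain ratio was 4.54 for *Zfp141* (3.50 to 5.93) and between 15.7 and 20.3 for the other 3, whose intervals overlapped each other and lay above that of *Zfp141*. On chromosome 8 from 71882019 to 71993792, the 3 listed genes had a median of 0.82 and none passed 1.

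Most pairs of members within the same run were not near copies at their starts. Every pair within a run was compared, adjacent or not. Where a gene had several windows, the match with the highest identity was kept. Over 152 pairs with both promoter windows, the median identity was 51.1%, 133 pairs were under 60% and 3 reached 80%. Windows of unrelated genes were not aligned for comparison. The split of reads could be followed for 2 of the 184 pairs, whose parts of reads added up to whole reads in both libraries (within 0.015 read). *Zfp955a* had 95.09 reads in the input and 344.19 in the RIP, and *Zfp955b* had 88.91 and 921.81, with log2 ratios of 1.35 and 2.76. Taken as 1 pair, they had 184 and 1266 reads, a log2 ratio of 2.36 and a plain ratio of 5.81. *Zfp354b* and *Zfp354a* had 66.17 and 22.83 reads in the input, and 326.37 and 61.63 in the RIP. Their log2 ratios were 1.66 and 0.63, and that of the pair was 1.58. The ratio of 1 gene of such a pair is uncertain, while the sum is not open to how the reads were divided between both. *Zfp982* and *Zfp979*, whose windows were 84.9% identical, had log2 ratios of 2.31 and 0.78, with parts of a read that did not add up between them.

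Overlap between genes limited the reading of 11 members. Of these, 7 overlapped a listed gene on the other strand, and 5 overlapped one on the same strand, with *Zfp512b* in both sets. The opposite pairs were *Zfp646* with *Zfp668*, *Zfp174* with *Zfp597*, *Zfp142* with *Plcd4*, *Zfp335* with *Pcif1* and *Zfp512b* with *Prpf6*. Whether reads were counted by strand is not given in the sources used here, so reads within the overlap, 560 to 2668 bases long in these opposite pairs, cannot be told apart. The overlaps on the same strand were longer. *Zfp469* overlapped *Gm20388* over 14031 bases, *Zfp652* overlapped *Phospho1* over 7642 and *Zfp512b* overlapped *Uckl1* over 2790. The 2 *Zfp91* rows shared 29107 bases. Counting by strand would not separate the reads of these genes. *Zfp174* and *Zfp597* had log2 ratios of 0.95 and 0.85, close to each other, whereas *Zfp646* and *Zfp668* differed by 2.25 against 0.65.

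Of 40 marker genes of testis cells, 5 were listed, a share of 12.5% beside 21.3% of all protein-coding genes. They were *Gfra1* of spermatogonia, *Sycp1*, *Sycp2* and *Meioc* of spermatocytes and *Catsper1* of spermatids. Being listed depends on a higher level in the RIP, so the markers cannot check the tissue or its cell types. No marker of elongating spermatids or of Sertoli, Leydig, peritubular, endothelial or macrophage cells was listed, and since the table leaves out genes that were not called higher, it gives no level for them.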

How the data were processed

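The 2 RIP-seq libraries, 1 input and 1 FMRP RIP from testes of wild-type adults, were grouped by their labels. The authors deposited CPM values per gene. The submitters' processing notes name STAR and GRCm38 (mm10), and the counting tool, its treatment of strand and its annotation are not given in the sources used here. The table also holds the authors' fold changes, p-values, adjusted p-values and enrichment marks, which were not used. The normalized coverage tracks were not used here.

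Library totals were recovered as the step at which CPM values become multiples of 0.01 read. Whole reads made up 78.4% (input) and 78.8% (RIP) of the CPM values above 0. The planned use of counts was therefore dropped, no count test was run and a log2 ratio with a pseudocount of 1 CPM was used. A floor of 3 reads corresponds to 0.0972 and 0.0822 CPM. Counting intervals (95%) came from rounded reads, and PCR duplicates are not independent molecules. Symbols were matched to RefSeq GRCm38.p6 directly or by a single synonym. Transcript lengths were not used here.

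Members and lists were chosen with earlier results of these data known. Named genes were, among members with at least 100 reads, the 8 highest and 5 lowest log2 ratios, the 5 highest levels in each library, the smaller families, the largest runs and the listed genes of the fixed lists. Gene groups by role and the highest plain ratios were picked after the values were seen. The scripts were tested on simulated data. Python 3.11.15, pandas 2.3.3, SciPy 1.17.1 and Biopython 1.88 were used. Alternatives were other pseudocounts, other scalings, filters on level and reads, other run gaps and exact symbols.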

Additional observations from a re-analysis of the deposited data

How the results depend on the processing

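The count of members above a log2 ratio of 1, 156 of 210, was 97 with a pseudocount of 5 CPM, 187 with 0.1 CPM and 190 with none (the last chosen after seeing the data). It was 127 of 164 members with at least 1 CPM in both libraries. With at least 10 CPM in the RIP it was 94 of 108, but a filter on the RIP level itself favours high ratios. Neither filter was applied to all listed genes. With whole reads in both libraries it was 89 of 124 (71.8%, beside 69.3% of whole-read listed genes). The median of 1.50 was 0.91 with 5 CPM, 1.79 with 0.1 CPM and 1.84 without a pseudocount. It was 1.51 at 1 CPM or more in both libraries, and 1.84 at 10 CPM or more in the RIP. For all listed genes the median was 1.04 with a pseudocount of 5 CPM, above that of the members. With 0.1 CPM and without a pseudocount it was 1.58 and 1.61, below that of the members. Scaling decided the sign. With the reads on unlisted genes as the scale, all 210 passed 1, as did 99.96% of all listed genes. The members' median was then 2.33, while that of all listed genes moved from 1.35 to 2.24. Scaled to the sum of the listed genes, 20 passed 1 (9.52%, beside 8.17% of all listed genes). The median was then -0.0653, beside -0.25 for all listed genes. Under that scaling the sign turned for *Zfp541* (-0.0449), *Zscan10* (-0.0503), *Zscan26* (-0.19), *Zkscan8* (-0.22), *Zfp110* (-0.37), *Zscan20* (-0.40), *Zfat* (-0.45), *Zscan22* (-0.47), *Zscan18* (-0.53), *Zkscan2* (-0.55), *Zkscan5* (-0.55), *Zkscan6* (-0.71) and *Zfand3* (-0.89), and for the 5 lowest members, *Zfp953* (-0.45), *Zfp296* (-0.72), *Zfp839* (-0.74), *Zfp780b* (-0.79) and *Zfp827* (-0.98). In all, 115 members (54.8%) lay below 0, beside 64.3% of all listed genes. The medians of the chromosome 7 runs from 12478293, 24081924 and 29816114 became -0.47, -0.20 and -0.22, and that of the chromosome 6 run became -0.30. The scaling is built from genes selected as higher, so its centre lies among them by construction. With gaps of 100 kb there were 15 runs with 56 members, and with 1000 kb 20 runs with 98. Exact symbols gave the same 209. No paired analysis was possible because only 1 library stood in either group. The absence of replicates and of a control precipitation, the selected table and shared reads limit all values, and depth limits the 18 members under 100 reads.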
